A study of Mus musculus with 23 samples.

Results

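The genes described here are 8 genes of cholesterol synthesis: Hmgcs1, Idi1, Fdps, Fdft1, Sqle and Lss, which encode enzymes of the pathway, and Insig1 and Srebf2, which encode regulators of it. They were taken by name from a table of 54347 genes, after Ensembl identifiers had been matched to symbols without their version number. All 8 were found, and all 8 were among the 17190 genes that passed the filter on low counts. RNA had been sequenced in 23 libraries. Their cells came from mice at postnatal day 2, from a piece of the lower incisor called the labial cervical loop, where the epithelium of the growing tooth is renewed. The mice carry a Sox2-GFP reporter, with green fluorescent protein driven by the endogenous Sox2 promoter, and cells were sorted by that fluorescence, so a Sox2-positive cell is any cell of the dissected region in which this promoter was active. The 4 groups are Sox2-negative cells of batch A (n = 6), Sox2-positive cells of batch A (n = 6), Sox2-negative cells of batch B (n = 4) and Sox2-positive cells of batch B (n = 7). The batches were separate days with different mice, so day and mice cannot be told apart. The labels do not say that the libraries of 1 group came from separate mice, and p-values then measure only the spread between these libraries, which may be technical.

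Cells build cholesterol from acetyl-CoA through mevalonate, isoprenoid diphosphates, squalene and lanosterol. When membrane sterol is low, SCAP carries the transcription factor SREBP-2, the product of Srebf2, from the endoplasmic reticulum to the Golgi, where it is cut and released to the nucleus. There it raises transcription of most enzymes of the pathway and of Insig1, whose protein holds SCAP back in the endoplasmic reticulum when sterol is plentiful. HMGCS1 makes HMG-CoA, IDI1 interconverts the 5-carbon isoprenoid diphosphates, FDPS makes farnesyl diphosphate, FDFT1 joins farnesyl diphosphate into squalene, SQLE makes its epoxide and LSS closes the rings to give lanosterol.

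Promoter sequence is shown for Hmgcs1, Idi1 and Insig1, which were called lower in batch B than in batch A in Sox2-positive cells. It is also shown for Srebf2, the gene of the factor that acts on them. Fdps was called lower there too, but no promoter sequence was held for it. The sequences are those of RefSeq on build GRCm38.p6 and hold the 250 bases before the first start that its promoter table lists for the gene. These starts are not those of the GENCODE gene models whose positions are given with each gene, so that the windows of Idi1, Insig1 and Srebf2 run past the GENCODE start. Capitals mark TCACNCCA, a form of the sterol regulatory element that SREBP binds, and CCAAT, the element bound by NF-Y, on either strand (CCAAT on the opposite strand reads ATTGG).
Hmgcs1, chr13:119690101-119690350, plus strand: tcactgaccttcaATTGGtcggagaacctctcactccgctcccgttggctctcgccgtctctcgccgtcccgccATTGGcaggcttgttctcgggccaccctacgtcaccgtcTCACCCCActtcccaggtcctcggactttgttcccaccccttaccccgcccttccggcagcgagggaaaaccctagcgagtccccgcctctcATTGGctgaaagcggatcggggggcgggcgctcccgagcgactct
Idi1, chr13:8885356-8885605, plus strand: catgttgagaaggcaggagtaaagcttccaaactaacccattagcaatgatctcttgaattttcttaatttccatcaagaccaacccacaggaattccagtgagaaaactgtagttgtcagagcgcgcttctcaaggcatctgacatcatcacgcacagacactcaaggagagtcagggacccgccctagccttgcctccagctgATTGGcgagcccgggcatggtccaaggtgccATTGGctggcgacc
Insig1, chr5:28071162-28071411, plus strand: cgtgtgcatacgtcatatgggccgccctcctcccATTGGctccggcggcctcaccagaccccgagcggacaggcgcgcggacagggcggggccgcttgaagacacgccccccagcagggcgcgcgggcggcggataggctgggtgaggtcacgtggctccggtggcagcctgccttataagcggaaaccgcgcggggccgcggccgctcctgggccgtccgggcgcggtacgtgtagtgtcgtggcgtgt
Srebf2, chr15:82147019-82147268, plus strand: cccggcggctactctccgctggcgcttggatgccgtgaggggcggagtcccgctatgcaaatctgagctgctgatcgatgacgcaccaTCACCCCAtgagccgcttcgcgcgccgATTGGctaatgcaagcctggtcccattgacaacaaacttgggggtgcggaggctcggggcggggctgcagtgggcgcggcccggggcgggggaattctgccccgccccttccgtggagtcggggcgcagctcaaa

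Windows were held for 5 members: these 4 and Lss. TCACNCCA, searched on both strands, stood in 2 of the 5, at 137 to 130 bases before the start of Hmgcs1 and 162 to 155 bases before that of Srebf2, against 3.58% of 27025 promoter windows of the same length. The letters of this motif were chosen after the windows had been seen, and it stood in 1 of 14 windows of the other synthesis genes. CCAAT stood in 5 of 5 windows, against 34.5% of all windows, and GGGCGG, the GC box bound by Sp1, in 5 of 5 against 32.9%. CACGTG, an E-box that reads the same on both strands, stood only in that of Insig1 among the 5, at 101 to 96 bases before the start, against 6.05% of all. No 2 of these matches shared a base in the 5 windows. A match is a string of letters and not a measured binding site.

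The libraries held 2305778 to 9541443 estimated counts (median 4831091), and levels are given as CPM, counts over the TMM-scaled total of the library. On this scale 3 counts were 0.355 to 1.29 CPM. That limit covers counting error only, and PCR copies were not marked with molecular identifiers. Sox2 separated the sorted populations, at 0 or 1 count in the Sox2-negative libraries of batch A and 0 to 10 in those of batch B, against 14 to 64 and 37 to 121 counts in the Sox2-positive ones. The 10 epithelial markers summed to 4149 to 4570 CPM in batch A Sox2-positive libraries and 4495 to 6778 CPM in those of batch B, against 212 to 331 and 460 to 533 CPM in the Sox2-negative ones. The Sox2-positive libraries of the batches were not alike in other cell types: the 9 glial markers summed to 1071 to 1374 CPM in batch A and 56.0 to 93.1 CPM in batch B, and 9 of 9 were called lower in batch B. In Sox2-negative libraries the glial sum was 28.1 to 74.8 CPM in batch A, where Foxd3 was at 0, and 43.3 to 65.6 CPM in batch B, where Sox10, Foxd3 and Cdh19 were at 0. Markers of enamel-forming ameloblasts (6 genes) summed to 288 to 349 CPM in batch A Sox2-positive libraries and 6.80 to 10.1 CPM in those of batch B. Their sums in the Sox2-negative libraries were 742 to 935 CPM in batch A and 591 to 710 CPM in batch B, with Amtn at 0 in all 4 groups, Klk4 in batch A Sox2-positive and batch B Sox2-negative cells, and Enam in batch B Sox2-positive cells. Erythroid markers (7 genes) summed to 53432 to 61787 CPM in batch B Sox2-negative libraries and 980 to 1182 CPM in those of batch A. In the same libraries leukocyte markers (9 genes) summed to 619 to 718 CPM in batch B and 3214.1 to 3580.5 CPM in batch A. Endothelial markers (7 genes) summed there to 160 to 239 CPM in batch B and 677 to 971 CPM in batch A. The part of any of these differences in the values of the 8 genes was not tested. Libraries numbered 1 and 2 of batch B, in both populations, had stood apart from the rest of that batch in earlier work on the whole table, and members' calls that change without them are given both ways.

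In batch A Hmgcs1, Idi1, Fdps and Fdft1, the enzymes from HMG-CoA to squalene among the 8, rose in Sox2-positive cells by 1.22 to 1.72 on the log2 scale, and neither regulator was called. The summed level of the 8 genes was 420 to 485 CPM in the 6 Sox2-negative libraries and 712 to 857 CPM in the 6 Sox2-positive ones, with no overlap. Of the 8 genes, these 4 were called higher and 0 lower, where 19.3% of the 14296 genes tested were called higher and 24.2% lower (43.4% either way), so that the number called, regardless of direction, is near that among all genes. The median log2 fold change of the 8 was 1.09, beside -0.04 over all genes tested. In RNA of a sorted pool, fewer cells of a type and less RNA per cell cannot be told apart. In batch B the 8 genes divided. Hmgcs1, Fdps, Fdft1 and Sqle were called higher in Sox2-positive cells and Insig1 and Srebf2 lower, where 27.1% of 15765 genes were called higher and 27.6% lower (54.7% either way). The sum in batch B was 446 to 525 CPM in the 4 Sox2-negative libraries and 452 to 517 CPM in the 7 Sox2-positive ones, which overlap. The median log2 fold change of the 8 in batch B was 0.11, beside 0.01 over all genes. Scaled by the total count, the batch B sums were 395 to 456 CPM in Sox2-negative and 452 to 520 CPM in Sox2-positive libraries, and per transcript length 216 to 264 and 306 to 378 TPM (counts over transcript length, scaled to a common total), a scale on which Fdps, with the shortest transcript, carries more weight; on the latter the groups did not overlap.

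**Figure D1:**
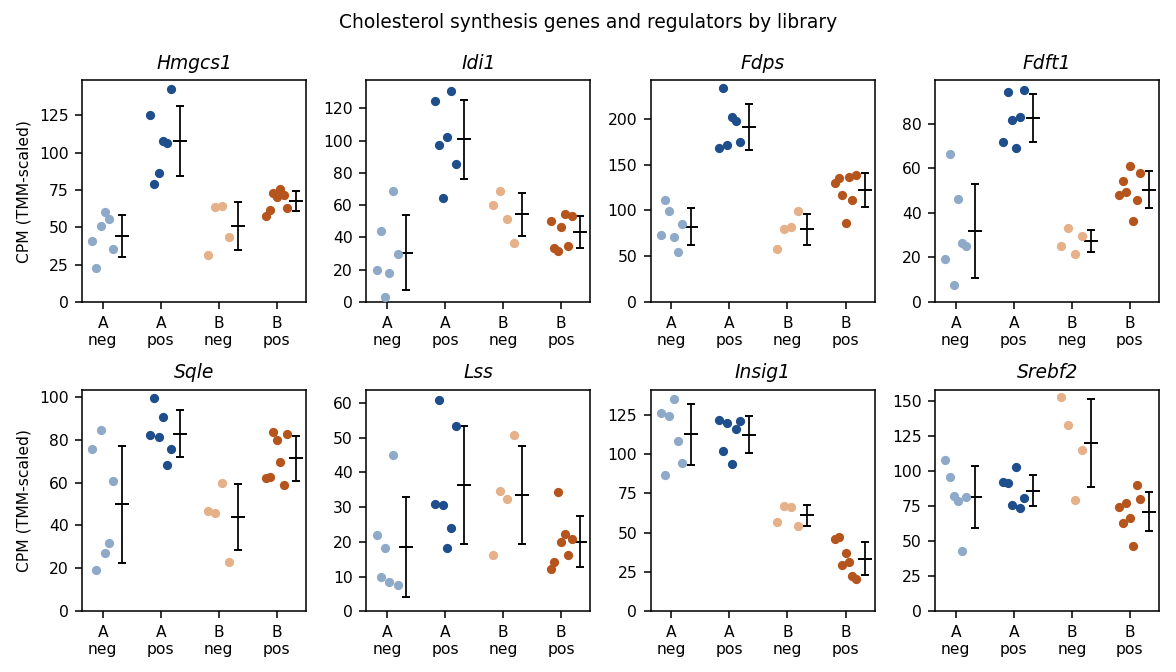
Level of each of the 8 genes in every library, in CPM of the TMM-scaled total (vertical axis, from 0), for the 4 groups of batch (A, B) and sorted population (neg, Sox2-negative; pos, Sox2-positive); points are libraries, and the horizontal tick with bars is the mean ± SD. Fdps lies between 168 and 233 CPM in every batch A Sox2-positive library and at or below 138 CPM in every other library, while Insig1 is lowest in batch B Sox2-positive libraries, at 20.7 to 47.4 CPM.

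Hmgcs1 (build mm10, chr13:119690379-119708260, plus strand), whose product makes HMG-CoA, was at 22.8 to 60.1 CPM (median 45.9) in batch A Sox2-negative libraries and 79.1 to 143 CPM (median 107) in Sox2-positive ones. Every Sox2-positive library of batch A was above every Sox2-negative one, for a log2 fold change of 1.29 (SE 0.23, adjusted p 0.000343 by edgeR). In batch B the Sox2-negative libraries had 31.5, 63.9, 64.0 and 43.7 CPM, and the 7 Sox2-positive ones 57.6 to 75.5 CPM (median 70.1). The groups overlapped there, with 4 of 7 Sox2-positive libraries above the highest Sox2-negative one. Batch B gave 0.48 on the same scale (SE 0.19, adjusted p 0.0465 by edgeR), and the call was lost in 8 of 11 fits with 1 library left out (adjusted p 0.0168 to 0.161) and in 4 of 8 other alternatives (DESeq2, adjusted p 0.0725; RLE factors, 0.0778; the replicate block, 0.0967; without batch B libraries 1 and 2, log2 value 0.42, 0.101). The Sox2-negative cells had like levels in the batches, 44.3 ± 14 CPM in A (SD, n = 6) and 50.8 ± 16 CPM in B (n = 4).

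Idi1 (chr13:8885501-8892451, plus strand) had, of the 8 genes, the population difference that changed most from batch to batch. Its Sox2-negative level in batch A ran from 3.15 to 69.0 CPM (median 24.9), and its Sox2-positive level from 64.3 to 131 CPM (median 99.5). All but 1 of the 6 Sox2-positive libraries were above the highest Sox2-negative one, with a log2 fold change of 1.72 (SE 0.46, edgeR adjusted p 0.00629). In batch B the Sox2-negative libraries had 60.3, 68.4, 51.4 and 36.8 CPM and the Sox2-positive ones 31.7 to 54.4 CPM (median 46.2). There the groups overlapped, and the log2 value of -0.25 did not pass (SE 0.21, edgeR adjusted p 0.315). Without the batch B libraries numbered 1 and 2 it was 0.02 (adjusted p 0.956).

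Fdps (chr3:89093588-89101959, minus strand), which makes the farnesyl diphosphate used for sterols and for protein prenylation, had the highest level per transcript length of the 8 genes in all 4 groups. It was at 54.8 to 111 CPM (median 79.4) in batch A Sox2-negative and 168 to 233 CPM (median 186) in batch A Sox2-positive libraries, with no overlap (log2 fold change 1.22, SE 0.17, edgeR adjusted p 2.23e-05). In batch B it was at 57.8, 79.2, 81.4 and 99.4 CPM in Sox2-negative and 86.1 to 138 CPM (median 130) in Sox2-positive libraries, 6 of 7 of which were above the highest Sox2-negative one. The log2 difference in batch B, 0.69 (SE 0.17, edgeR adjusted p 0.00245), was called, and without libraries 1 and 2 it was 0.41 (adjusted p 0.105). Fdps shares 1124 exonic bases, 26.7% of its exons, with the same-strand gene model Gm43738, which was listed at 0 in batch A and averaged 0.20 and 0.50 CPM in the Sox2-negative and Sox2-positive libraries of batch B.

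Fdft1 (chr14:63145150-63179578, minus strand) was the only member whose groups were separate in both batches with Sox2-positive cells higher. It was at 7.61 to 66.4 CPM (median 25.7) and 69.1 to 95 CPM (median 82.4) in the Sox2-negative and Sox2-positive libraries of batch A. In batch B the Sox2-negative libraries had 25.0, 33, 21.6 and 29.5 CPM and the Sox2-positive ones 36.2 to 60.9 CPM (median 49.3). The log2 fold changes were 1.38 (SE 0.37, edgeR adjusted p 0.00629) in batch A and 0.95 (SE 0.19, adjusted p 0.000532) in batch B. On the opposite strand, 774 bases or 18.3% of the exons of Fdft1 are shared with Ctsb, the gene of the lysosomal protease cathepsin B. Ctsb also was higher in Sox2-positive libraries, at 715 ± 86.7 CPM against 304 ± 44.0 CPM in batch A (SD, n = 6 each) and 673 ± 85.5 CPM (n = 7) against 254.5 ± 28.4 CPM (n = 4) in batch B. The labels give no strand setting, so reads of the shared bases may not be told apart, and the part of Ctsb in the Fdft1 values was not tested.

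Sqle (chr15:59315077-59331192, plus strand), the oxygen-requiring step after squalene, differed by nearly the same amount in both batches. In batch A it was at 19.1 to 84.5 CPM (median 46.2) in Sox2-negative and 68.1 to 99.3 CPM (median 81.7) in Sox2-positive libraries, which overlapped (log2 fold change 0.74, SE 0.32, adjusted p 0.0719 by edgeR). A call was gained there in 3 alternatives, with voom weights (adjusted p 0.0136), no filter (adjusted p 0.0394) and total-count scaling (adjusted p 0.0498), and in 2 of 12 fits with 1 library left out, without Sox2-negative library 1 or 3. In batch B it was at 46.5, 45.7, 59.97 and 22.9 CPM in Sox2-negative and 59.0 to 83.6 CPM (median 69.4) in Sox2-positive libraries, 6 of 7 of which were above the highest Sox2-negative one. Batch B gave a log2 value of 0.77 (SE 0.22, edgeR adjusted p 0.00704).

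Lss (chr10:76531588-76557138, plus strand), the lanosterol synthase, had the lowest mean level per length of the 8 genes in all 4 groups, next to Fdft1 in batch B Sox2-negative cells, and was not called in either batch. It was at 7.49 to 45.1 CPM (median 14.1) and 18.2 to 61.0 CPM (median 30.8) in the Sox2-negative and Sox2-positive libraries of batch A, a log2 fold change of 0.97 (SE 0.46, edgeR adjusted p 0.0972). In batch B the Sox2-negative libraries had 16.1, 34.7, 32.3 and 50.6 CPM and the Sox2-positive ones 12.1 to 34.4 CPM (median 20.1), with a log2 fold change of -0.67 (SE 0.32, adjusted p 0.0814). The groups overlapped in both batches. With 1 library left out, the batch A value ran from 0.77 to 1.46 and was called in 1 of 12 fits, without Sox2-negative library 5 (adjusted p 0.0106). The batch B value ran from -0.91 to -0.40 and was called in 2 of 11 fits, without Sox2-negative library 1 and without Sox2-positive library 3 (smallest adjusted p 0.0191).

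Insig1 (chr5:28071363-28078662, plus strand), the sterol-dependent brake, was not called between the populations of batch A and was called lower in Sox2-positive cells of batch B. In batch A it was at 86.6 to 135 CPM (median 116) in Sox2-negative and 93.5 to 122 CPM (median 118) in Sox2-positive libraries, with a log2 fold change of 0.00 (SE 0.14, edgeR adjusted p 0.99). In batch B the Sox2-negative libraries had 56.6, 66.9, 66.3 and 54.2 CPM. All 7 Sox2-positive libraries were below these, libraries 1 and 2 at 45.7 and 47.4 CPM and the other 5 at 20.7 to 37.0 CPM. The log2 difference of -0.79 passed (SE 0.22, edgeR adjusted p 0.00627). Insig1 has a paralog, Insig2, which was at 53.6 ± 15.5, 44.6 ± 15.5, 53.8 ± 7.14 and 46.6 ± 8.06 CPM in batch A negative, batch A positive, batch B negative and batch B positive libraries (SD, n = 6, 6, 4 and 7) and was called in no comparison.

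Srebf2 (chr15:82147181-82205379, plus strand) was likewise called in batch B and not in batch A. In batch A it was at 43.1 to 108 CPM (median 82.1) and 73.5 to 103 CPM (median 86.2) in Sox2-negative and Sox2-positive libraries, a log2 fold change of 0.08 (SE 0.20, edgeR adjusted p 0.77). In batch B the Sox2-negative libraries had 152.6, 132.8, 79.5 and 115.2 CPM and the Sox2-positive ones 46.5 to 90.2 CPM (median 74.6), 5 of 7 of them below the lowest Sox2-negative library. The log2 difference was -0.68 (SE 0.18, adjusted p 0.00523 by edgeR), and without libraries 1 and 2 it was -0.40 (adjusted p 0.199).

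Fitted over both batches with batch as a covariate, 4 of the 8 genes were called higher and 1 lower in Sox2-positive cells, where 24.9% of 17190 genes were called higher and 32.5% lower (57.5% either way), again near the number called among all genes when direction is left aside. The 4 were Fdft1 (log2 fold change 1.14, SE 0.23, adjusted p 0.000107), Fdps (0.94, SE 0.13, adjusted p 1.33e-06), Hmgcs1 (0.87, SE 0.18, adjusted p 0.000149) and Sqle (0.72, SE 0.20, adjusted p 0.00378), by edgeR's quasi-likelihood test. Each of these 4 calls held under every alternative that was run and in each fit with 1 library left out. The lower gene was Insig1 (-0.40, SE 0.15, edgeR adjusted p 0.0271), whose call was lost in 12 of 23 fits with 1 library left out and in 5 of 8 other alternatives (adjusted p 0.0647 with voom weights, 0.111 with total counts, 0.113 with no filter, 0.117 without batch B libraries 1 and 2 and 0.203 with the replicate block), and which was called in batch B and not in batch A. Idi1 (0.73, SE 0.34, adjusted p 0.0694), Lss (0.15, SE 0.34, adjusted p 0.726) and Srebf2 (-0.32, SE 0.16, adjusted p 0.0904) were not called. Idi1 was called in 4 of 8 alternatives, by 1.15 (adjusted p 0.0117) without batch B libraries 1 and 2, and in 6 of 23 fits with 1 library left out (adjusted p 0.0247 to 0.129 over the 23). Srebf2 was called with voom weights (adjusted p 0.0334) and in 1 of 23 such fits (adjusted p 0.0159).

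The test of the difference between the batches, as the batch B log2 fold change minus that of batch A, gave a value below 0 for all 8 genes, with a median of -0.84 beside 0.02 over all genes. It passed for 2 of them, both lower, where 2.82% of 17190 genes were called higher and 4.22% lower (7.04% either way). These were Idi1 (-2.03, SE 0.54, edgeR adjusted p 0.0185) and Insig1 (-0.86, SE 0.26, edgeR adjusted p 0.0458). The call of Idi1 was kept in all 23 fits with 1 library left out (adjusted p 0.00213 to 0.048) but not without batch B libraries 1 and 2 together (-1.73, adjusted p 0.208). The call of Insig1 was lost in 17 of the 23 fits (adjusted p 0.0198 to 0.0942). Srebf2 (-0.83, SE 0.28, adjusted p 0.0735), Lss (-1.71, SE 0.59, adjusted p 0.0786), Hmgcs1 (-0.87, SE 0.31, adjusted p 0.0896), Fdps (-0.59, SE 0.24, adjusted p 0.146), Fdft1 (-0.48, SE 0.44, adjusted p 0.602) and Sqle (-0.03, SE 0.41, adjusted p 0.992) did not pass. Of the 23 fits, Srebf2 was called in 2 (smallest edgeR adjusted p 0.0309), Lss in 1 (0.00948) and Hmgcs1 in 1 (0.0402). Srebf2 and Lss were each also called in 1 of 8 other alternatives. The sign for Sqle changed under 5 of the alternatives, where it lay between 0.01 and 0.11.

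Within Sox2-positive cells, 4 of the 8 genes were called lower in batch B than in batch A and 0 higher, where 4.85% of 17190 genes were called higher and 5.54% lower (10.4% either way). The median log2 difference of the 8 was -0.70, beside 0 over all genes. Insig1 had the largest difference, from 112 ± 11.8 CPM (SD, n = 6) to 33.4 ± 10.5 CPM (n = 7; log2 difference -1.74, SE 0.18, edgeR adjusted p 4.54e-08). Idi1 went from 101 ± 24.7 to 43.5 ± 9.87 CPM (-1.21, SE 0.35, edgeR adjusted p 0.0242), Hmgcs1 from 108 ± 23.6 to 67.4 ± 6.74 CPM (-0.68, SE 0.20, adjusted p 0.0271) and Fdps from 191 ± 24.9 to 122 ± 19.0 CPM (-0.65, SE 0.15, adjusted p 0.00574). For these 4 and for Fdft1 (-0.71, SE 0.28, edgeR adjusted p 0.121) every batch B library was below every batch A library. The share of all genes with such separate ranges was not counted, so nothing is read from how many members had them. Fdft1 was called in 1 of 7 other alternatives and in 1 of 23 fits with 1 library left out (edgeR adjusted p 0.0352). Without batch B libraries 1 and 2 the calls of Hmgcs1 (-0.62, adjusted p 0.107) and Idi1 (-1.21, adjusted p 0.0983) were lost, leaving 2, and each of these calls was also lost in 5 of 23 fits with 1 library left out. Glial markers summed to 1071 to 1374 CPM in the batch A Sox2-positive libraries and to 56.0 to 93.1 CPM in those of batch B. The ameloblast markers summed to 288 to 349 and 6.80 to 10.1 CPM there, and mesenchymal markers (10 genes) to 1371 to 1944 and 712 to 832 CPM. Cell cycle markers (8 genes) summed to 1165 to 1356 CPM in batch A and 856 to 983 CPM in batch B. The sums of the epithelial, leukocyte, endothelial and erythroid markers overlapped between the batches. The part of any of these lists in the 4 differences was not tested. 

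Within Sox2-negative cells only Insig1 was called, from 112 ± 19.2 CPM in batch A (SD, n = 6) to 61.0 ± 6.56 CPM in batch B (n = 4), lower by a log2 difference of -0.88 (SE 0.20, edgeR adjusted p 0.00476). That is 1 of 8 genes, where 5.85% of 17190 genes were called higher and 5.35% lower (11.2% either way), a share near that among all genes. Every batch B library was below every batch A library, and the call was kept in every alternative. Idi1 (0.82, SE 0.41, edgeR adjusted p 0.208), Lss (0.85, SE 0.44, adjusted p 0.235) and Srebf2 (0.56, SE 0.21, adjusted p 0.0885) had positive values that did not pass, and the other 4 lay between -0.23 and 0.19. Comparisons within 1 population and those within 1 batch share libraries, so their values are given side by side and are not independent.

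**Figure D2:**
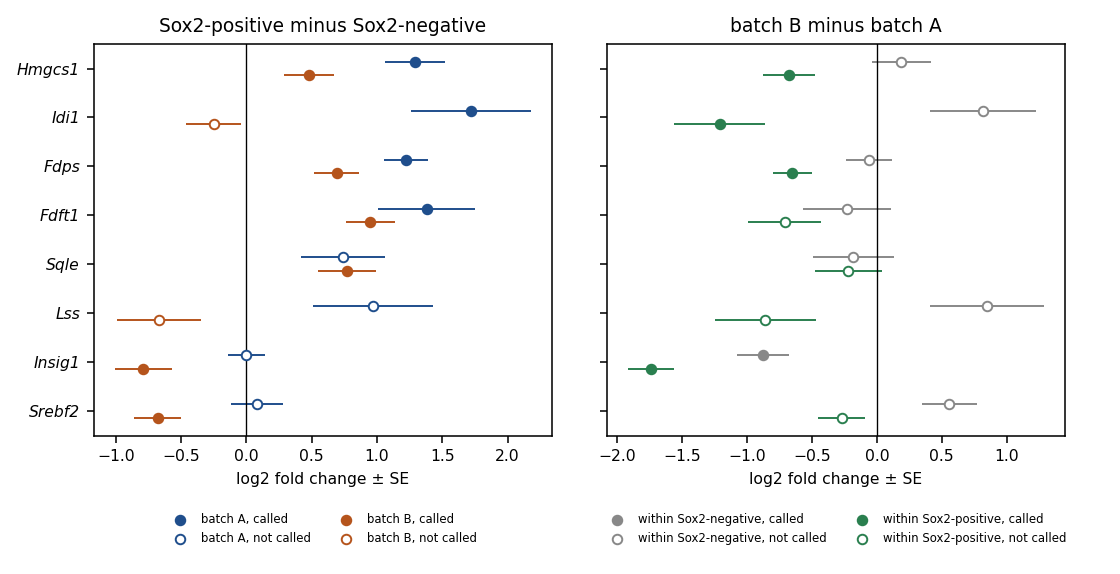
Log2 fold change ± SE of each of the 8 genes (horizontal axis), for Sox2-positive minus Sox2-negative cells in each batch (left) and for batch B minus batch A in each population (right); filled circles passed an adjusted p of 0.05. In batch A the 6 enzymes lie from 0.74 to 1.72 and the 2 regulators at 0.00 and 0.08, and in Sox2-positive cells all 8 genes lie below 0 for batch B minus batch A, Insig1 lowest at -1.74.

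Per transcript length the order of the members changed between groups. In batch A Sox2-positive cells Fdps was at 267 ± 36.9 TPM (SD, n = 6), followed by Insig1 at 80.2 ± 7.65, Idi1 at 64.3 ± 16.4, Hmgcs1 at 60.2 ± 13.4, Sqle at 58.0 ± 8.24, Fdft1 at 42.9 ± 5.27, Srebf2 at 32.8 ± 4.88 and Lss at 15.0 ± 6.96 TPM. Idi1, Hmgcs1 and Sqle, neighbours in that order, lay within 1 SD of each other. In batch B Sox2-positive cells the order was Fdps (157 ± 24.9 TPM, n = 7), Sqle (46.0 ± 7.66), Hmgcs1 (34.7 ± 4.49), Idi1 (25.6 ± 6.00), Srebf2 (24.9 ± 5.08), Fdft1 (24.1 ± 3.76), Insig1 (21.9 ± 6.17) and Lss (7.67 ± 3.02 TPM). Insig1 thus stood after Fdps in batch A and next to last in batch B, although it, Fdft1, Srebf2 and Idi1 lay within 1 SD of each other there. In Sox2-negative cells Fdps led at 101 ± 24 TPM in batch A (n = 6) and 85.6 ± 20.9 TPM in batch B (n = 4), and Lss was last at 6.70 ± 5.10 and 10.7 ± 4.76 TPM. TPM here uses the length of 1 principal transcript per gene and not the lengths the authors used.

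Taken over all 4 groups, the members did not vary together from library to library. Over 23 libraries, with each group's mean removed from log2 CPM, the Pearson correlation was above 0 in 9 of 28 pairs, with a median of -0.13. The lowest was -0.736 for Sqle with Fdft1, the enzymes after and before squalene, and the highest 0.617 for Fdft1 with Idi1. Within single groups of batch A, 13 of 28 pairs were above 0 in Sox2-negative libraries (median -0.158) and 14 in Sox2-positive ones (median -0.0242). In batch B the numbers were 16 in Sox2-negative libraries (median 0.105, n = 4) and 8 in Sox2-positive ones (median -0.154, n = 7). The points share library depth and the TMM scaling, and the values are descriptions with no test. In batch A Sox2-negative libraries the opposition is visible in the levels: libraries 1 and 3 had 75.6 and 84.5 CPM of Sqle with 19.3 and 7.61 CPM of Fdft1, while library 2 had 19.1 CPM of Sqle with 66.4 CPM of Fdft1. The summed level of the 8 stayed within 420 to 485 CPM in that group, although Idi1 ranged there from 3.15 to 69.0 CPM. Among 11082 genes with a mean of at least 10 CPM, the 5 outside the lists whose deviations were most like the mean deviation of the 8 were Gm20342 (r = 0.808), Trim3 (0.762), Zfp414 (0.755), Tlcd2 (0.752) and Dhrs7 (0.749). Of the members themselves, which enter that mean, Idi1 (0.598) and Lss (0.567) were most like it, and Fdps (-0.189) and Srebf2 (-0.186) least. The 5 genes outside the lists are the highest of 11082 correlations and were not tested against chance, so nothing is read from them.

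The other enzymes of the pathway were a list of 16 genes, all of which passed the filter. In batch A 5 of 16 were called higher and 0 lower (median log2 fold change 0.62), in batch B 3 higher and 2 lower (median -0.13), and over both batches 5 higher and 1 lower (median 0.34). Among all genes 43.4%, 54.7% and 57.5% were called either way in these comparisons, so the number called among the 16 is below the general share in each. Acat2, which makes acetoacetyl-CoA for HMGCS1, was called higher in both batches, by 1.99 (SE 0.20, edgeR adjusted p 8.3e-07) in A and 1.01 (SE 0.17, adjusted p 0.000138) in B. Cyp51, the lanosterol demethylase that follows LSS, was at 21.0 ± 8.69 and 84.9 ± 19.7 CPM in Sox2-negative and Sox2-positive cells of batch A (SD, n = 6 each; log2 fold change 2.02, SE 0.31, edgeR adjusted p 7.84e-05). In batch B it was at 54.1 ± 9.29 (n = 4) and 45.8 ± 6.72 CPM (n = 7; -0.17, edgeR adjusted p 0.419). Its difference between the batches was -2.25 (SE 0.36, edgeR adjusted p 0.000158), and Cyp51 and Acat2 were the 2 of 16 that passed that test.

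**Figure D3:**
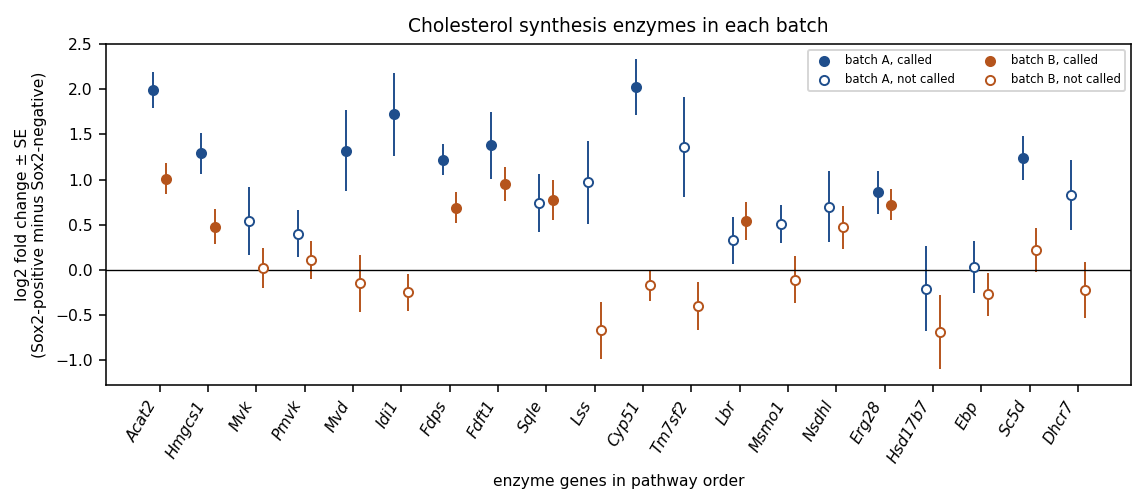
Log2 fold change ± SE of Sox2-positive minus Sox2-negative cells (vertical axis) for enzyme genes of the pathway in its order, in batch A and batch B; filled circles passed an adjusted p of 0.05. Acat2, Hmgcs1, Fdps, Fdft1 and Erg28 are among those filled in both batches. Idi1 and Cyp51, the latter at 2.02, are filled in batch A and not in batch B, and Sqle in batch B and not in batch A. Other filled circles are not named here.

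Within Sox2-positive cells, 6 of the 16 were called lower in batch B and 0 higher (median -0.56), beside 5.54% and 4.85% of all genes. Among them were Acat2, Cyp51, Lbr, Sc5d and Msmo1, a sterol C4 oxidase with the lowest value (-1.35, SE 0.22, edgeR adjusted p 7.57e-05). Their number was 2 without batch B libraries 1 and 2. The sum of the 16 followed that of the 8: 488 to 625, 854 to 1026, 510 to 649 and 570 to 640 CPM in batch A negative, batch A positive, batch B negative and batch B positive libraries.

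**Figure D4:**
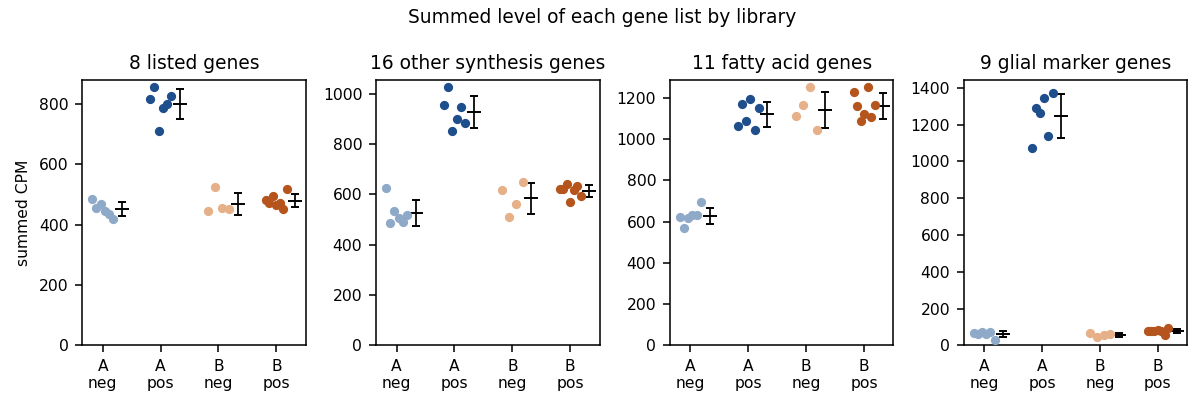
Summed CPM per library (vertical axes, from 0) of the 8 listed genes, 16 other cholesterol synthesis genes, 11 fatty acid synthesis genes and 9 glial markers in the 4 groups; points are libraries and ticks with bars the mean ± SD. The 8 genes sum to 712 to 857 CPM in batch A Sox2-positive libraries and to at most 525 CPM in every other library, and the glial markers to 1071 to 1374 CPM there and at most 93.1 CPM elsewhere.

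Genes of sterol control and transport (20 genes, all tested) had calls in both directions. Over both batches 7 were called higher and 6 lower (median log2 fold change -0.21), and the counts were 7 and 5 in batch A against 6 and 7 in batch B. All genes were called at 57.5%, 43.4% and 54.7% in these comparisons, and nothing is read from the number called in the list. Scap, whose protein binds those of Srebf2 and Insig1, and Insig2 were not called in any comparison. Srebf1, which encodes SREBP-1 and is the paralog of Srebf2, was called higher in both batches, by 0.86 (SE 0.25, edgeR adjusted p 0.0109) in A and 1.05 (SE 0.26, adjusted p 0.0029) in B, while Srebf2 was called lower in B. Apoe, an apolipoprotein of cholesterol transport that glia also make, was at 299 ± 38.6 CPM in batch A Sox2-positive cells (SD, n = 6) and 35.1 ± 4.65 CPM in those of batch B (n = 7; -3.09, SE 0.17, edgeR adjusted p 2.46e-13).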

How the data were processed

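RNA of 23 libraries of sorted mouse incisor cells was analysed, and the study's ATAC-seq libraries were not used here. The deposited values are the authors' estimated counts (expected counts) per gene, not scaled to a common depth, rounded here to whole numbers before each test. FastQC, Trimmomatic and Salmon and build mm10 are named per the submitters' processing notes, with no versions; the annotation and any strand setting are not given in the sources used here. Libraries were made by Smart-seq2 with Tn5, which copies RNA by PCR without molecular identifiers, per the labels' protocols. Symbols, positions and transcript lengths came from GENCODE M21 on GRCm38, with 54094 identifiers matched (99.5%), and promoter letters from RefSeq on GRCm38.p6. Unused columns numbered 0.

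Groups came from the labels. Tests used edgeR 4.0.16 in R 4.3.3 (TMM scaling, filterByExpr with a minimum count of 10, quasi-likelihood F test, two-sided, Benjamini-Hochberg over all genes tested, called at an adjusted p under 0.05). The fit over both batches had batch as a covariate. A model of the 4 group means gave the differences between batches and their interaction with population, and each batch was also fitted alone. The SE is the absolute log2 fold change over the square root of F. Levels in CPM were taken over TMM-scaled totals, and log2 CPM a prior count of 2. The fits were tested on simulated data.

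The 8 genes and the lists beside them were chosen with earlier results of these data known. The genes named are the 8, genes of the lists of other synthesis, sterol control and transport, fatty acid and non-sterol isoprenoid genes, Sox2, and the 5 genes most like the 8; Ctsb and other overlapping genes were added for shared exons. Alternatives were DESeq2 1.42.0, limma 3.58.1 voom with quality weights, RLE and total-count scaling, no filter or a mean of 10 counts, a replicate block, batch B without libraries 1 and 2, and each library left out in turn. Alternatives for the list counts and the other scalings of the summed level were chosen after seeing the data. Some genes of these lists are counted in them but not reported here by name.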

Additional observations from a re-analysis of the deposited data

Results flagged for a closer look

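In 32 groups of member levels and 16 groups of summed levels, 3 libraries lay far from the rest of their group by Dixon's ratio, the gap to the nearest library over the whole range; chance gives about 1 in 20 such groups. The summed level of the 8 genes in batch B Sox2-negative library 2 was 525 CPM, next to 456 CPM (ratio 0.87). The sum of the 16 other synthesis genes in batch A Sox2-negative library 1 was 625 CPM, next to 535 CPM (ratio 0.659). The glial sum in batch A Sox2-negative library 6 was 28.1 CPM, next to 61.0 CPM (ratio 0.706).

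The interaction test was passed by 11 genes of the lists, with values given as the log2 difference of batch B minus that of batch A. The lists hold 8, 16, 20, 11 and 9 genes, and 7.04% of 17190 genes passed among all. Among the members these were Idi1 (-2.03) and Insig1 (-0.86), and among the other synthesis genes Acat2 (-1.04) and Cyp51 (-2.25). The call of Insig1 was lost in 17 of 23 fits with 1 library left out. In sterol transport Apoe (-1.94) and Abcg1 (1.44), a sterol exporter, passed in opposite directions. In fatty acid synthesis Acly (-1.15), Elovl6 (-2.81), Elovl5 (-1.05), Scd2 (-0.65) and Fads2 (-1.22) passed, all with a lower difference in batch B.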

How the results depend on the processing

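Of 360 results under other alternatives than leaving out 1 library, 321 kept their direction and side of the threshold, 20 lost and 11 gained a call, and 8 reversed; of 920 with 1 library left out the numbers were 834, 47, 20 and 19. The interaction, called for 2 of the 8 genes, was called for 1 under RLE factors, total-count scaling, the filter at a mean of 10 counts, the replicate block and without batch B libraries 1 and 2. Without these libraries, 3 members in place of 6 were called in batch B and 2 in place of 4 between batches in Sox2-positive cells; fewer libraries enter there, and other causes were not tested. The interaction of Sqle turned to 0.01 with DESeq2, RLE factors and the mean filter, 0.04 with total counts and 0.11 without libraries 1 and 2; Fdft1 in Sox2-negative cells between batches turned to 0.08 with voom, Fdps there to 0.13 and Idi1 in batch B to 0.02 without libraries 1 and 2. None of these was called in those comparisons.

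With 1 library left out, members called numbered 4 to 6 over both batches, 4 to 5 in batch A, 5 to 6 in batch B, 1 to 2 for the interaction, 1 to 3 between batches in Sox2-negative and 2 to 5 in Sox2-positive cells, and other synthesis genes over both batches 5 to 9. Signs changed for Insig1 (-0.07 to 0.06) and Srebf2 (-0.05 to 0.18) in batch A, the interaction of Sqle (-0.25 to 0.16), and Sqle (-0.36 to 0.04), Fdft1 (-0.43 to 0.13) and Fdps (-0.17 to 0.09) in Sox2-negative cells between batches, none of them called. The block by replicate number, tried although same-numbered libraries did not deviate together (correlations from -0.0212 to 0.0444 over 10 pairs), gave 4 called members over both batches, 4 in batch A and 4 in batch B, with Insig1 lost over both batches (adjusted p 0.203) and in batch B (adjusted p 0.0747).

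Total-count scaling moved the median of all genes from -0.12 to 0.00 over both batches and from 0 to -0.15 between batches in Sox2-negative cells, where the share of calls that were higher went from 52.2% to 32.3% (in Sox2-positive cells from 46.7% to 35.4%). The summed level of the 8 genes, Sox2-positive over Sox2-negative, was 1.77 in batch A and 1.02 in batch B, and per transcript length 2.15 and 1.38; by total counts it was 1.14 in batch B. At this depth 0.355 to 1.29 CPM stood for 3 counts in a library, and levels below that rest on fewer counts.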

Other observations

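Fatty acid synthesis genes, many of them targets of SREBP-1, were also measured across the 4 groups. Of 11 genes, all tested, 7 were called higher in Sox2-positive cells of batch A and 0 lower (median log2 fold change 1.25), 2 higher and 4 lower in batch B (median 0.02), and 5 passed the interaction, all lower (median -1.0). Among all genes 43.4%, 54.7% and 7.04% were called in these comparisons, so that the number called in batch B is near the general share. Within Sox2-negative cells 7 of the 11 were called higher in batch B and 0 lower (median 0.69), beside 5.85% and 5.35% of all genes; that number was 3 with total-count scaling, 4 with no filter and 2 without batch B libraries 1 and 2. Their summed level was 569 to 692 CPM in batch A Sox2-negative libraries and 1044 to 1250 CPM in those of batch B, against 1044 to 1196 and 1088 to 1250 CPM in the Sox2-positive ones of A and B. Elovl6, which lengthens saturated fatty acids, was higher in Sox2-positive cells of batch A (1.61, SE 0.29, edgeR adjusted p 0.000267) and lower in those of batch B (-1.14, SE 0.26, adjusted p 0.00172). Fasn, the fatty acid synthase gene, was called higher in both batches, by 1.25 (SE 0.28, edgeR adjusted p 0.00175) and 1.35 (SE 0.23, adjusted p 0.000129).

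Genes that use isoprenoids for other products than sterols (9 genes, all tested) gave like counts in the batches: 3 were called higher and 1 lower in Sox2-positive cells of batch A, of batch B and over both, where 43.4%, 54.7% and 57.5% of all genes were called, so that nothing is read from the number called. Fnta, a protein prenyltransferase subunit that uses the product of FDPS, rose by 0.86 in batch A (SE 0.19, edgeR adjusted p 0.00185) and 0.87 in batch B (SE 0.14, adjusted p 6.12e-05). Nus1, a subunit of the enzyme that makes dolichol precursors, fell by 0.97 (SE 0.35, edgeR adjusted p 0.0353) and 1.70 (SE 0.21, adjusted p 4.85e-06).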
